A study of Mus musculus with 9 samples.

Results

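Histone deacetylases remove acetyl groups from lysines. The class I enzyme Hdac3 works inside a nuclear complex built on the corepressor Ncor1, which nuclear receptors and other repressors bring to their target genes. Class IIa enzymes (Hdac4, Hdac5, Hdac7 and Hdac9) shuttle between cytoplasm and nucleus under the control of neuronal activity and hold back MEF2 target genes. The class IIb enzyme Hdac6 stays in the cytoplasm, deacetylates alpha-tubulin and cortactin and binds ubiquitin, through which it takes part in the clearance of protein aggregates. Its relative Hdac10 removes acetyl groups from polyamines, and Hdac11 is the sole class IV enzyme. Loss of TDP-43, the RNA-binding protein encoded by Tardbp, has been reported to lower Hdac6 RNA in human cell lines.

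The genes described here are these 8 deacetylases and Ncor1, 9 of 16770 genes tested. They were named by symbol, and each has a value made from the probe sets whose annotation gives that symbol alone. The probe sets were selected on a measured level, their mean over all 9 arrays, which had to reach 6.07 on the log2 scale, the median of the whole table. The genes themselves were named with earlier results of these arrays known, so that counts over the 9 are descriptions and no independent evidence. All 9 genes passed. Of their 335 probe sets 319 were kept and 16 were too dim, and the share kept ran from 34 of 38 for Hdac4 to all 35 for Hdac6. The nearest probe set under the limit belonged to Hdac3 (mean 5.98) and the nearest above it to Hdac10 (6.23).

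RNA came from primary cortical neurons of C57BL/6 mouse embryos at day 15 of gestation. On day 5 of culture the cells were exposed for 4 h to lentivirus carrying a short hairpin RNA (shRNA), and after 6 more days RNA was taken on day 11. The control hairpin (shCont) and the hairpins shTdp-43-1 and shTdp-43-2 against mouse Tdp-43 were each run on 3 Affymetrix exon arrays. All groups had serum, BDNF, CNTF and the antimitotic AraC in the medium and all were infected, so that no uninfected culture is compared here. Motor neurons and 11 days after transfection are mentioned in the design text of the series. The sample labels, which were followed here, give cortical neurons and day 11 of culture. Nothing in the labels says whether the 3 arrays of a group came from separate litters, so p-values measure the spread between these samples, which may be technical. The number of arrays limits the precision, and 3 against 3 cannot reach an exact permutation p under 0.1. In such cultures fewer cells of a type and less RNA per cell cannot be told apart.

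Tardbp was checked first. Its log2 value was 9.77, 9.94 and 10.06 on the control arrays, 7.84, 8.23 and 8.55 with shTdp-43-1 and 8.21, 8.58 and 7.90 with shTdp-43-2. Every knockdown array lay below every control array, and the groups of the 2 hairpins overlapped. Markers of neurons stood at a mean log2 value of 10.99 to 11.28 on every array (9 markers), with members that went both ways: 2 were called higher and 1 lower with shTdp-43-1, and 1 higher and 2 lower with shTdp-43-2. Gad2, a GABA-synthesising enzyme, rose with each hairpin (0.69 and 0.65), Neurod6, a factor of excitatory cortical neurons, fell with each (-0.42 and -0.78), and Gad1 rose with shTdp-43-1 and fell with shTdp-43-2 (0.29 and -0.32). The mean levels of markers of microglia (6) and endothelium (4) stayed between 6.98 and 7.54. Of these, only the endothelial gene Tek was called, with shTdp-43-2 (0.27). Markers of the oligodendrocyte lineage (5) had a mean level of 9.52 to 9.74, and 0 were called with either hairpin. Of 6 neural progenitor markers, Eomes fell with each hairpin (-0.33 and -0.41). Nes rose with shTdp-43-2 (0.60), was not called with shTdp-43-1 (-0.19) and differed between the hairpins (0.79, limma adjusted p = 0.000697). The mean level of 6 fibroblast and pericyte markers was 8.61 to 8.73 in controls, 8.42 to 8.60 with shTdp-43-1 and 8.21 to 8.38 with shTdp-43-2, and 2 and 3 of the 6 fell in these comparisons. The pericyte genes Pdgfrb (-0.71 and -0.56) and Rgs5 (-0.40 and -0.83) were called with each and Dcn with shTdp-43-2 (-1.15), while the collagen genes Col1a1, Col1a2 and Col3a1 read 0.14 to 0.15 above control and were not called. That of 6 astrocyte markers was 9.78 to 9.92, 9.68 to 9.73 and 9.64 to 9.74, and 1 and 2 of them fell. These were Aqp4 with each hairpin (-0.43 and -0.59) and Gja1 with shTdp-43-2 (-0.36), while Slc1a3 read 0.03 and 0.04. The part of these marker changes in the results below was not tested.

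The stretches before the start sites of Hdac6, Hdac4 and Hdac5 are shown because Hdac6 and Hdac4 were both lower with shTdp-43-2 than with shTdp-43-1, while Hdac5 rose with shTdp-43-2. They are the 250 bases before a RefSeq start on GRCm38.p6, all on the minus strand and written 5′ to 3′, and the RefSeq span of Hdac4 and Hdac6 reaches beyond the start used. Capitals mark GGGCGG, the GC box, and CCAAT, the CCAAT box, searched on both strands.
Hdac6 (chrX:7947890-7948139): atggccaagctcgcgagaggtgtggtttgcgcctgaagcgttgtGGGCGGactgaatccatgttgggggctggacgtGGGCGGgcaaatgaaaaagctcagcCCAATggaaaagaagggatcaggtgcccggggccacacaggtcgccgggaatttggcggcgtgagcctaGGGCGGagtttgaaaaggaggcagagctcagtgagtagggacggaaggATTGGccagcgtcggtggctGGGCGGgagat
Hdac4 (chr1:92180342-92180591): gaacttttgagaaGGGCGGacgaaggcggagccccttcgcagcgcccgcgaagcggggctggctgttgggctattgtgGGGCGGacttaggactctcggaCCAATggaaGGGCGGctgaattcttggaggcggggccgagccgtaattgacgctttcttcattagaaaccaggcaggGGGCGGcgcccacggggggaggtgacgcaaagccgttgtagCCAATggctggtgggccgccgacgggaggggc
Hdac5 (chr11:102230173-102230422): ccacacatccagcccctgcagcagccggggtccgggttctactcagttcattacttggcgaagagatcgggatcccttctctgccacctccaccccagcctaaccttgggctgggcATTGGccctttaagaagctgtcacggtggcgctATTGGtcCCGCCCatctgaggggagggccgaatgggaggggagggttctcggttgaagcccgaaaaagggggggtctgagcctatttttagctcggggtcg
The windows of Hdac6 and Hdac4 each hold 4 GC boxes and 2 CCAAT boxes, and that of Hdac5 holds 1 and 2. Of 32851 windows of this length in the same table, 32.7% hold at least 1 GC box and 33.8% at least 1 CCAAT box. How many of them hold several was not counted, so these shares do not bear on the number of boxes in a window. These matches describe the letters only; no binding was measured here. Of the 9 genes 7 have such a window in the table, and Hdac3 and Hdac10 have none.

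Hdac6 RNA fell with shTdp-43-2, did not pass the test with shTdp-43-1, and differed between the hairpins. The log2 value of Hdac6 was 10.51, 10.49 and 10.36 with shCont, 10.66, 10.55 and 10.55 with shTdp-43-1 and 10.19, 10.29 and 10.12 with shTdp-43-2. All arrays of shTdp-43-1 lay above the controls and all of shTdp-43-2 below them. Under shTdp-43-2 Hdac6 fell to 83.7% of the control level, a log2 change of -0.26 with an SE of 0.0815 (limma adjusted p = 0.0423). With shTdp-43-1 its value was 110% of control (0.13 ± 0.0815, limma adjusted p = 0.309, 95% interval from -0.05 to 0.31), which was not called. Directly compared, Hdac6 was lower with shTdp-43-2 than with shTdp-43-1, at a log2 difference of -0.39 ± 0.0815 (limma adjusted p = 0.0104, interval from -0.57 to -0.21). The difference of Tardbp itself between the hairpins was 0.03, with a 95% interval from -0.38 to 0.43.

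The fall of Hdac6 with shTdp-43-2 lay close to the threshold. It was called in 6 of 19 other settings, with adjusted p from 0.0225 to 0.144 over them and log2 changes from -0.31 to -0.18. Without shCont replicate 1 the adjusted p was 0.144, without shCont replicate 2 it was 0.129, and without shTdp-43-2 replicates 1 or 3 it was 0.107 or 0.123. Without shTdp-43-1 replicates 2 or 3 it was 0.0568 or 0.0567. Centring the arrays on their medians gave a change of -0.18 (adjusted p = 0.0868). The call was also absent in the fit of only shTdp-43-2 and shCont, so its loss was not limited to leaving out arrays. The difference between the hairpins was called in 18 of 19 settings, the exception being the fit that left out replicate 2 of shTdp-43-1 together with replicate 3 of shTdp-43-2 (-0.37, adjusted p = 0.0564).

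**Figure D1:**
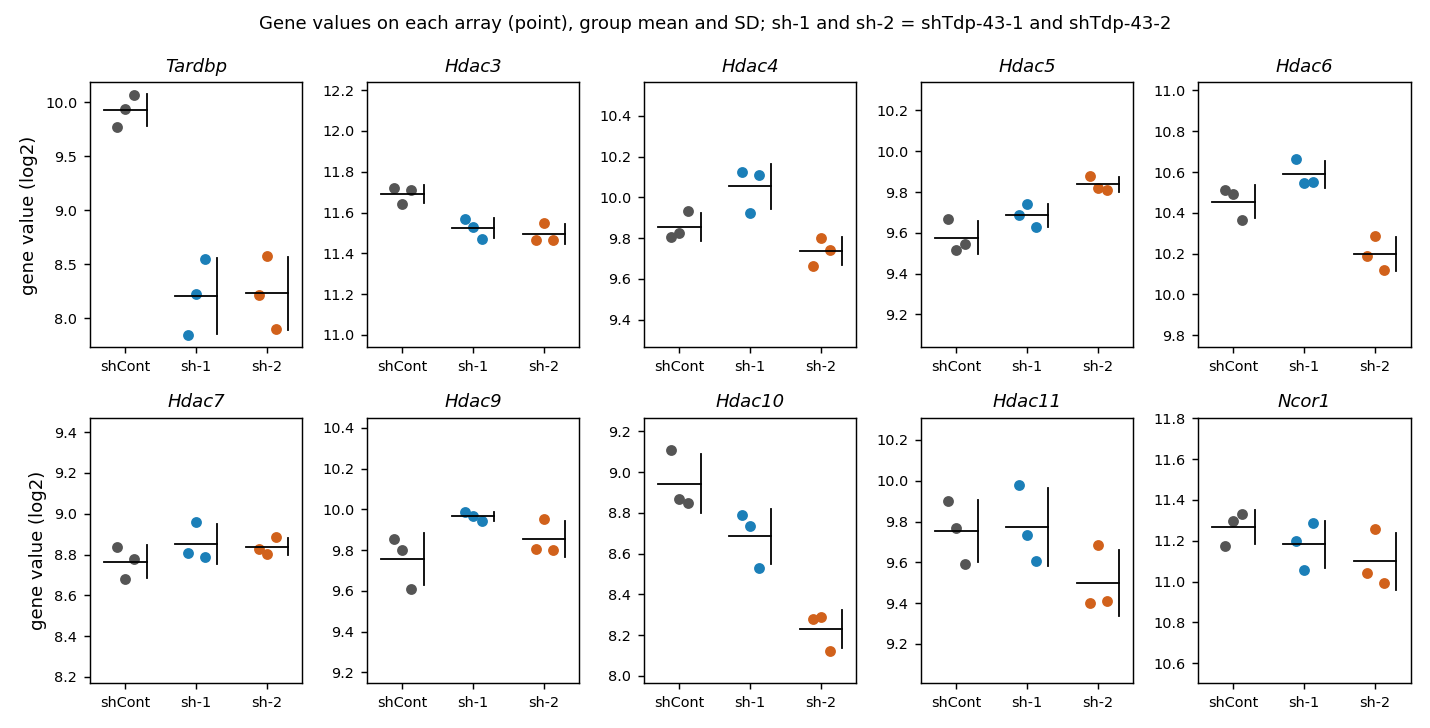
Log2 gene values of Tardbp, the 8 deacetylases and Ncor1 on each of 9 arrays (points), with group mean (horizontal line) and SD (vertical line); every panel but that of Tardbp spans the same height. Hdac6 sits between 10.36 and 10.51 in controls, above that with shTdp-43-1 and at 10.12 to 10.29 with shTdp-43-2, and Hdac10 reads 8.12 to 8.29 with shTdp-43-2 against 8.85 to 9.11 in controls.

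All 35 probe sets of Hdac6 had a lower mean with shTdp-43-2 than with shCont, with changes from -0.45 to -0.00 and a median of -0.27. With shTdp-43-1, 32 of the 35 were higher and 3 lower, from -0.09 to 0.41 with a median of 0.14. Probe sets of a gene are read from the same RNA and are no replicates. Usage compares how far a probe set moved with how far the remaining probe sets of its gene moved. It was called by limma's diffSplice for 0 of 35 Hdac6 probe sets in either comparison with control, and an unadjusted p under 0.05 was reached by 0 of them.

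**Figure D2:**
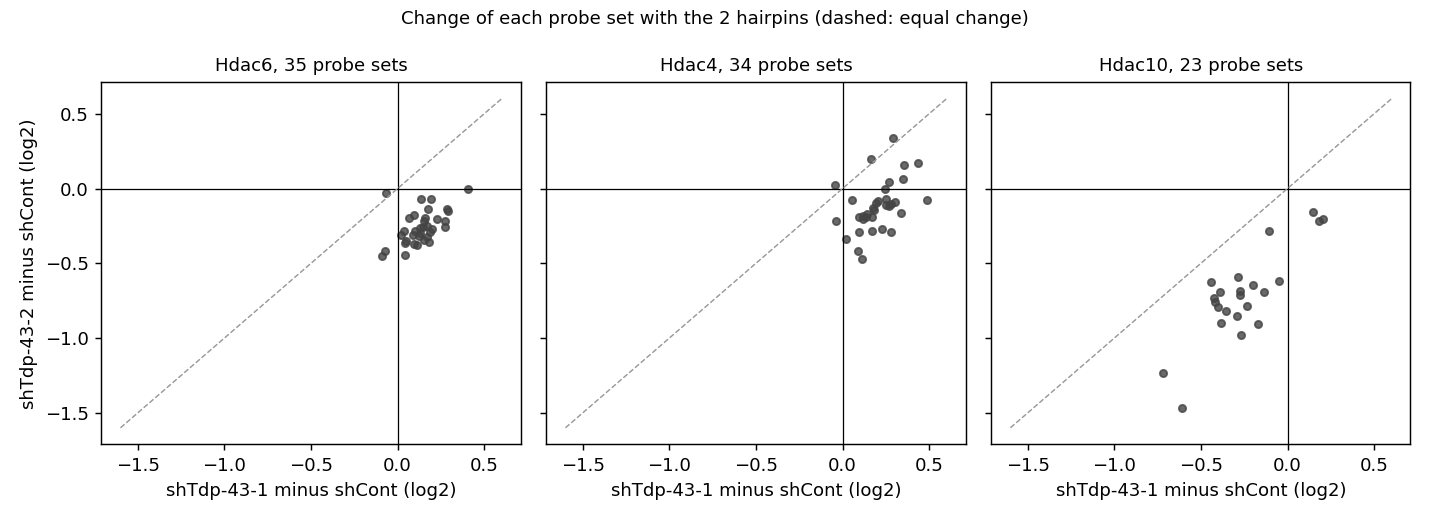
Log2 change of every kept probe set of Hdac6 (35), Hdac4 (34) and Hdac10 (23) with shTdp-43-1 (x axis) and shTdp-43-2 (y axis) against the same 3 control arrays; the dashed line marks equal change. Hdac6 and Hdac4 points lie mostly to the right of 0 and below 0, and all 23 Hdac10 points lie below 0 on the y axis.

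All 16770 genes were ordered by how closely their values over the 9 arrays ran with Hdac6, and clone-like names (such as Rik and Gm) were passed over. The first 5 were Scarb1 (Pearson r = 0.988), Rnf144b (0.987), Nap1l3 (0.983), Ace (0.980) and Shd (0.979). Scarb1 encodes a receptor for high-density lipoprotein, Ace the angiotensin-converting enzyme and Nap1l3 a nucleosome assembly protein. These are descriptions over arrays that fall into 3 groups and share their processing. Among the deacetylases Hdac11 (r = 0.844), Hdac4 (0.793) and Hdac10 (0.750) ran closest to Hdac6, and Hdac5 ran the other way (-0.574). Over all genes Hdac11, Hdac4 and Hdac10 stood only at ranks 561, 944 and 1340.

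Hdac10, the polyamine deacetylase, had the largest change of the 9 genes with shTdp-43-2. Its log2 value was 9.11, 8.87 and 8.85 with shCont, 8.79, 8.73 and 8.53 with shTdp-43-1 and 8.28, 8.29 and 8.12 with shTdp-43-2. The 3 groups did not overlap, with controls highest and shTdp-43-2 lowest. Under shTdp-43-2 Hdac10 fell to 61.1% of control, a log2 change of -0.71 with an SE of 0.101 (limma adjusted p = 0.000553), a call present in all 19 other settings. With shTdp-43-1 it stood at 83.7% (-0.26 ± 0.101, limma adjusted p = 0.126, 95% interval from -0.48 to -0.04) and was not called in any of 19 settings.

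Between the hairpins Hdac10 differed by -0.45 ± 0.101 (limma adjusted p = 0.0141), called in 17 of 19 settings but not without shTdp-43-1 replicate 2 (adjusted p = 0.0507), nor without that array and shTdp-43-2 replicate 3 together (0.107). Every one of its 23 probe sets was lower than control with shTdp-43-2, from -1.46 to -0.16, and 20 were lower with shTdp-43-1. Probe set 5393450 of Hdac10 was called for lower usage with shTdp-43-2: its log2 values were 9.11, 8.94 and 8.71 in controls and 7.19, 7.80 and 7.38 with that hairpin. Its change exceeded that of the rest of the gene by -0.79 (diffSplice adjusted p = 0.0187), and the call was lost on leaving out shTdp-43-2 replicate 1 (adjusted p = 0.304) or any of the 3 controls in turn (0.0807, 0.167 and 0.0537).

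Hdac3, the catalytic partner of Ncor1, was lower than control with each hairpin without passing the threshold. Its log2 value was 11.72, 11.64 and 11.71 with shCont, 11.57, 11.53 and 11.47 with shTdp-43-1 and 11.46, 11.55 and 11.46 with shTdp-43-2. Both hairpin groups lay wholly below the controls. The changes were -0.17 ± 0.0735 (limma adjusted p = 0.168) and -0.20 ± 0.0735 (limma adjusted p = 0.0783), the second called in 2 of 19 other settings. Between the hairpins the difference was -0.03, with a 95% interval from -0.19 to 0.13. Probe set 4416799 of Hdac3 was used less with shTdp-43-2, at 9.88, 9.85 and 9.71 against 10.66, 10.27 and 10.50 in controls (usage -0.49, diffSplice adjusted p = 0.0142). That call was present in 12 of 18 other settings. Among the settings without it were those that left out shCont replicates 1 or 3 or shTdp-43-2 replicate 3 (adjusted p = 0.237, 0.0951 and 0.118).

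Ncor1 as a whole was not called in any comparison, but a small set of its probe sets fell far below the rest. The gene value was 11.17, 11.30 and 11.33 with shCont, 11.20, 11.06 and 11.29 with shTdp-43-1 and 11.04, 11.26 and 10.99 with shTdp-43-2. The 3 groups overlapped, and the changes were -0.08 ± 0.0962 (limma adjusted p = 0.585) and -0.17 ± 0.0962 (limma adjusted p = 0.252). Of 77 probe sets, 6 were called for lower usage with shTdp-43-2. The mean of these 6 was 8.65, 8.58 and 8.63 in controls, 8.27, 7.86 and 8.29 with shTdp-43-1 and 7.01, 7.34 and 6.65 with shTdp-43-2. That the last group is lowest follows from how the 6 were chosen. With shTdp-43-1, 3 of the 6 taken singly (4915975, 5046434 and 5163059) overlapped the controls. The mean of the other 71 was 11.39, 11.53 and 11.56 in controls and 11.39, 11.59 and 11.36 with shTdp-43-2, which overlap.

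The 6 probe sets are 4365780, 4915975, 4307352, 5105380, 5046434 and 5163059. Against the rest of Ncor1 their usage with shTdp-43-2 changed by -2.06, -1.78, -1.61, -1.27, -1.11 and -1.02 (diffSplice adjusted p from 1.12e-22 to 1.35e-05). The first 2 of these averaged 5.46 and 5.97 with shTdp-43-2, under the limit of 6.07 for dim probe sets. They passed that limit through the other groups, and how far they fell is uncertain at such low signal. The same holds for their p-values, of which 1.12e-22 is that of 4365780, and for their part in the mean of the 6. Leaving those 2 aside, the lowest diffSplice adjusted p was 7.52e-14, for 4307352. Probe set 4365780 read 7.75, 7.51 and 7.71 in controls and 5.26, 5.82 and 5.29 with shTdp-43-2, and probe set 4307352 read 9.79, 9.56 and 9.57 against 7.71, 8.12 and 7.84. Both were also used less with shTdp-43-1 (usage -0.69 and -0.76, diffSplice adjusted p = 0.0306 and 0.00833). Probe set 4639583, not among the 6, was used more with shTdp-43-1 (0.74, adjusted p = 0.0131). With shTdp-43-2 its usage changed by 0.16.

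All 6 calls with shTdp-43-2 were present in every other setting in which the probe sets were tested, 18 or 17 of them. The calls with shTdp-43-1 were fewer: in 15 of 18 settings for 4307352, 10 of 17 for 4365780 and 14 of 18 for 4639583. For 4307352 the adjusted p was 0.172 without shCont replicate 1 and 0.320 without shTdp-43-1 replicate 2. Leaving out any single control, or any single array of shTdp-43-1, ended the call of 4365780 (adjusted p from 0.0558 to 0.270). Probe set 4639583 was not called without shCont replicates 2 or 3, or shTdp-43-1 replicates 1 or 3 (0.0605 to 0.144).

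These 6 were among the dimmer probe sets of the gene, with 9-array means from 6.67 to 9.26. Of the kept Ncor1 probe sets, 5 others were no brighter than the brightest of them and changed with shTdp-43-2 by -0.25 to 0.09. These 5 were taken from the probe sets not called with that hairpin, so their small changes follow in part from that choice. Whether low signal had a part in the fall of the 6 was not tested. The lowest mean among those 5 was 7.91. Probe sets 4365780, 4915975 and 5163059 (means 6.67, 7.20 and 7.43) were dimmer than that and have no such counterpart. Probe set 4966890, left out as too dim (mean 5.74), read 6.66, 6.23 and 6.64 in controls, 5.73, 6.17 and 6.06 with shTdp-43-1 and 4.57, 5.10 and 4.45 with shTdp-43-2. Its log2 change with shTdp-43-2 was -1.80, which was not tested. The other Ncor1 probe sets left out as too dim, 5122034 and 5053361 (means 5.61 and 2.35), changed with that hairpin by -0.20 and 0.09. With the 6 left out of the gene value, a choice made after seeing the data, Ncor1 changed by -0.05 with each hairpin (limma adjusted p = 0.747 and 0.771). Exon positions were not used here, so where in Ncor1 the 6 lie is not given. diffSplice pools the spread over all probe sets of a gene, which are read on the same arrays, and its p-values rest on that.

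**Figure D3:**
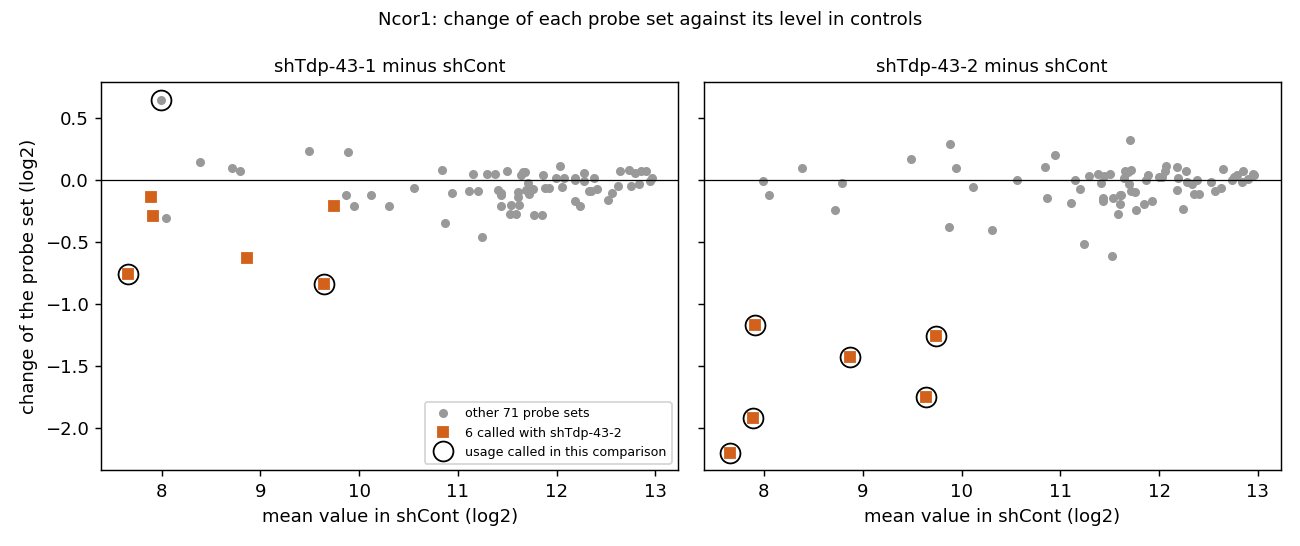
Log2 change of each of 77 Ncor1 probe sets (y axis) against its mean log2 value in shCont (x axis), for shTdp-43-1 (left) and shTdp-43-2 (right). Squares are the 6 probe sets called for lower usage with shTdp-43-2, at -2.20 to -1.17 on the right and -0.84 to -0.14 on the left; rings mark usage calls in the comparison shown.

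Among the class IIa enzymes, Hdac5 rose with shTdp-43-2 and Hdac4 differed between the hairpins. Hdac5 read 9.67, 9.52 and 9.54 with shCont, 9.69, 9.74 and 9.63 with shTdp-43-1 and 9.88, 9.82 and 9.81 with shTdp-43-2. All arrays of shTdp-43-2 were above all others, and those of shTdp-43-1 overlapped the controls. Its change was 0.26 ± 0.0770 with shTdp-43-2, 120% of control (limma adjusted p = 0.0313), and 0.11 ± 0.0770 with shTdp-43-1 (limma adjusted p = 0.375). The call was present in 11 of 19 settings, with adjusted p from 0.00961 to 0.170. It was absent without shCont replicates 2 or 3 (adjusted p = 0.115 and 0.0946) and without shTdp-43-2 replicates 1, 2 or 3 (0.103, 0.0541 and 0.0521).

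Between the hairpins Hdac5 differed by 0.15 (limma adjusted p = 0.245), and the 95% interval ran from -0.02 to 0.32. Of its 42 probe sets 37 were higher than control with shTdp-43-2. Against them probe set 5398640 read 7.67, 7.34 and 7.37 in controls and 6.93, 6.85 and 7.34 with that hairpin (usage -0.69, diffSplice adjusted p = 0.0157). Its lowest control array and its highest shTdp-43-2 array both read 7.34, and its call was absent without any 1 of the 3 controls (adjusted p = 0.129, 0.0545 and 0.0626) and without shTdp-43-2 replicates 1 or 2 (0.137 and 0.0923).

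Hdac4 read 9.80, 9.82 and 9.93 with shCont, 10.12, 9.92 and 10.11 with shTdp-43-1 and 9.66, 9.80 and 9.74 with shTdp-43-2. Arrays of shTdp-43-1 were highest and overlapped the controls, and those of shTdp-43-2 lay just below the controls. Neither hairpin was called against control (0.20 ± 0.0846, limma adjusted p = 0.155, and -0.12 ± 0.0846, limma adjusted p = 0.367). Hdac4 was lower with shTdp-43-2 than with shTdp-43-1 by -0.32 ± 0.0846 (limma adjusted p = 0.0325), called in 10 of 19 settings with adjusted p from 0.0126 to 0.131. Leaving out shTdp-43-1 replicates 1 or 3 gave adjusted p of 0.0906 and 0.107, leaving out shTdp-43-2 replicates 1 or 3 gave 0.131 and 0.0555, and leaving out shCont replicate 2 gave 0.0535. Of 34 probe sets, 32 were higher than control with shTdp-43-1 and 27 lower with shTdp-43-2.

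Hdac7 and Hdac9, the other class IIa enzymes, and Hdac11 were not called in any of the 3 comparisons. Hdac9 ran from 9.61 to 9.85 in controls, from 9.94 to 9.99 with shTdp-43-1 and from 9.80 to 9.95 with shTdp-43-2. The shTdp-43-1 arrays lay above the controls (0.21 ± 0.0863, limma adjusted p = 0.140), and shTdp-43-2 overlapped them (0.10 ± 0.0863, limma adjusted p = 0.463). With the median of its probe sets in place of the mean, Hdac9 was called higher with shTdp-43-1 (0.45, limma adjusted p = 0.0404), and its change with shTdp-43-2 was 0.32 (limma adjusted p = 0.0825). Hdac7 stayed between 8.68 and 8.96 on all arrays, with 95% intervals of the change from -0.09 to 0.26 and from -0.10 to 0.25. Hdac11 ran from 9.59 to 9.90, 9.61 to 9.98 and 9.40 to 9.69 in the 3 groups, with changes of 0.02 ± 0.121 and -0.25 ± 0.121 (limma adjusted p = 0.936 and 0.163). With the median of its probe sets Hdac11 was called lower with shTdp-43-2 (-0.38, limma adjusted p = 0.0494), 1 of 19 settings.

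**Figure D4:**
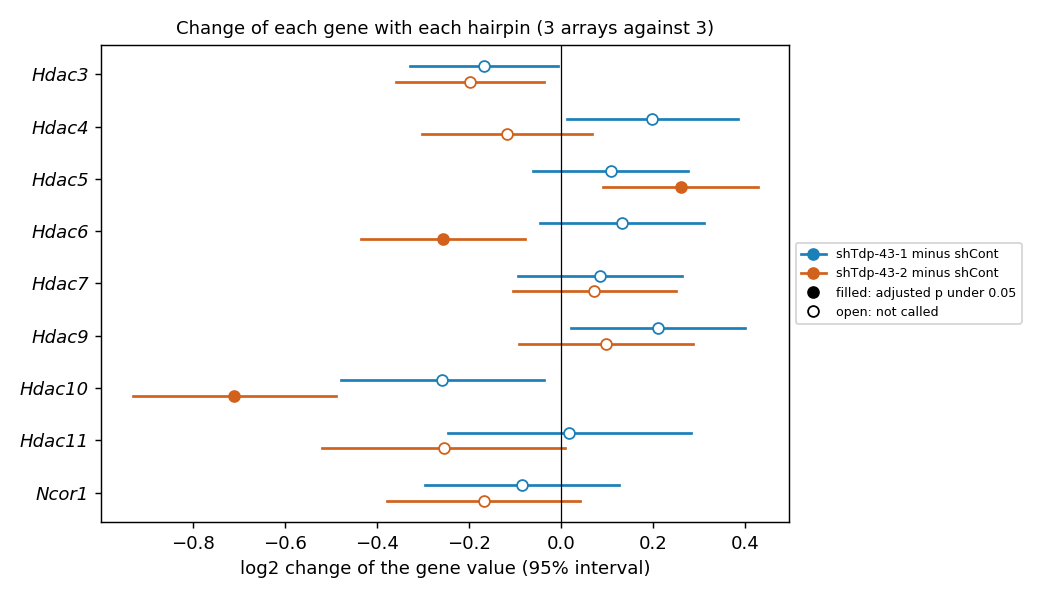
Log2 change of each gene with its 95% interval, for shTdp-43-1 and shTdp-43-2 against the same 3 shCont arrays; filled points have an adjusted p under 0.05. Filled points are Hdac5 (0.26), Hdac6 (-0.26) and Hdac10 (-0.71) with shTdp-43-2, and none with shTdp-43-1.

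Counted together, limma called 0 of the 9 genes with shTdp-43-1, where 11.1% of all genes were called (5.16% higher and 5.96% lower). Of the 9, 4 reached an unadjusted limma p under 0.05 in that comparison, Hdac3 and Hdac10 lower and Hdac4 and Hdac9 higher. The share of all genes at that cut-off was not counted, so the 4 cannot be set against the 11.1%. With shTdp-43-2, 1 rose and 2 fell, beside 7.76% of all genes called higher and 14.1% lower. Between the hairpins 3 of the 9 were lower with shTdp-43-2 and 0 higher, beside 7.31% and 4.22% of all genes. The median change of the 9 was 0.09, -0.17 and -0.11 in these comparisons, against 0.01, -0.01 and -0.03 over all genes. Among all genes, groups that did not overlap were likewise common: 16.9% lay wholly above the controls with shTdp-43-1 and 18.1% below, against 15.3% and 23.4% with shTdp-43-2. Between the hairpins, 11.1% lay wholly higher with shTdp-43-2 than with shTdp-43-1 and 16.8% wholly lower. How many genes had all 3 groups apart was not counted. For usage, 3 of the 319 probe sets (0.940%) were called with shTdp-43-1, 9 (2.82%) with shTdp-43-2 and 6 (1.88%) between the hairpins, beside 0.494%, 1.24% and 0.440% of all 248701 probe sets tested. Ncor1 alone held all 3 calls with shTdp-43-1, 6 of the 9 with shTdp-43-2 and all 6 between the hairpins, which are those named above. Among these 6, 4365780 and 4915975 passed the limit for dim probe sets through groups other than shTdp-43-2. Hdac3, Hdac5 and Hdac10 had 1 call each with shTdp-43-2, and the remaining genes had 0 in any comparison. Both knockdown comparisons use the same control arrays, and the direct comparison of the hairpins does not.

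Of 106 further genes of deacetylation listed by name, 102 were tested. With shTdp-43-1, 7 were called higher and 6 lower, and with shTdp-43-2, 12 higher and 14 lower. These shares, 12.7% and 25.5%, stood near the 11.1% and 21.9% of all genes. Hdac1, Hdac2 and Hdac8, the remaining class I enzymes, were not called with either hairpin. Of 7 sirtuins, the NAD-dependent deacetylases, Sirt7 rose with each hairpin (0.36 ± 0.0871 and 0.31 ± 0.0871, limma adjusted p = 0.0234 and 0.0253) and the others were not called.

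Of 4 tested genes listed with the Ncor complex, 2 rose with shTdp-43-2 and 0 with shTdp-43-1. They were Cops2 (0.51 ± 0.143), no core subunit of that complex, and Tbl1x (0.27 ± 0.0745), which encodes a beta-transducin-like subunit. Tbl1xr1, named after its values were seen, read -0.24 with shTdp-43-2 and was not called. Between the hairpins Tbl1x differed by 0.35 and Tbl1xr1 by -0.41 (limma adjusted p = 0.0120 and 0.00843). Of 10 factors that bring in Ncor, 3 were called higher and 0 lower with shTdp-43-1, and 3 higher and 1 lower with shTdp-43-2. The repressor Zbtb16 (0.49 and 0.58) and the thyroid hormone receptor Thra (0.36 and 0.43) rose with each hairpin. The retinoic acid receptor Rarb, named after its values were seen, rose by 0.39 with shTdp-43-1 and fell by 0.36 with shTdp-43-2, and the hairpins differed (-0.75 ± 0.0974, limma adjusted p = 0.000702).

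Among 17 partners and kinases of the class IIa enzymes, 1 rose with shTdp-43-1, and 4 rose and 3 fell with shTdp-43-2. Sik2, a salt-inducible kinase that phosphorylates them, rose with each hairpin (0.44 and 0.63). Named after their values were seen, the kinase Camk4 (-0.70 ± 0.122) and the transcription factor Mef2c (-0.38 ± 0.0961) fell with shTdp-43-2. Of 15 substrates and partners of Hdac6, 1 rose and 1 fell with shTdp-43-1, and 0 rose and 4 fell with shTdp-43-2. With shTdp-43-2, 7.76% of all genes rose and 14.1% fell. Prdx2, a peroxiredoxin, fell with each hairpin (-0.39 and -0.30).

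Of these 15 genes, 3 were called lower with shTdp-43-2 than with shTdp-43-1 and 0 higher, beside 7.31% and 4.22% of all genes. The 3 were named after their values were seen, because they differed in the direction of Hdac6. Whether they follow Hdac6 was not tested. Atat1, the acetyltransferase that acts on alpha-tubulin against Hdac6, had a log2 change of -0.00 in the shTdp-43-1 comparison and fell by 0.38 in that of shTdp-43-2 (difference -0.38 ± 0.0769, limma adjusted p = 0.00849). Cttn, which encodes cortactin, stood at -0.22 (not called) and -0.57 (difference -0.35, limma adjusted p = 0.0239). Tppp, a tubulin-binding protein, rose by 0.53 with shTdp-43-1 and fell by 0.44 with shTdp-43-2 (difference -0.97, limma adjusted p = 0.00146).

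Of the other deacetylase complexes, 0 of 13 Sin3 genes were called with either hairpin. In the NuRD list of 10, Mta2 fell with shTdp-43-1 (-0.25 ± 0.0690), and Gatad2a (-0.44 ± 0.0881) and the remodelling helicase Chd4 (-0.41 ± 0.0928) fell with shTdp-43-2. Of 9 CoREST genes tested, 0 rose and 3 fell with shTdp-43-1, and 1 rose and 2 fell with shTdp-43-2. Rcor2, a corepressor (-0.47 and -0.56), and Rest, the repressor of neuronal genes (-0.33 and -0.28), fell with each hairpin. Kdm1a, a histone demethylase, fell with shTdp-43-1 (-0.26), and Rcor1, another corepressor, rose with shTdp-43-2 (0.35), both named after their values were seen. Of 14 lysine acetyltransferases 1 rose and 1 fell with shTdp-43-1, and 1 rose and 2 fell with shTdp-43-2, and the coactivator Ncoa3 rose with each (0.46 and 0.67).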

How the data were processed

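RNA (100 ng per array) was measured on Affymetrix Mouse Exon 1.0 ST arrays. The authors deposited a log2 value per probe set, summarised by RMA with Expression Console, exon by exon, on build mm9, per the submitters' processing notes. No version of these tools was found in the labels. RMA removes changes shared by most probes of an array. Of 1256831 probe sets, 318760 name 1 gene in the platform annotation, with symbols updated through RefSeq. A gene value is the mean log2 of probe sets whose 9-array mean reached the table median; genes with at least 3 were tested (16770 genes, 248701 probe sets). All 9 arrays entered one limma 3.58.1 fit (R 4.3.3; lmFit, eBayes, 6 residual degrees of freedom), Benjamini-Hochberg adjusted over all genes and called under 0.05. Probe set usage was tested with diffSplice likewise. The code was tested on simulated data. Alternatives were other dim filters, scalings, summaries, eBayes settings, a replicate block and leaving out arrays.

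The genes and lists were chosen with earlier results of these data known. Named genes are Tardbp, the 9 genes, at most 3 called probe sets per gene and list genes called with both hairpins, or else with either; further names, among them the rest of the 6 Ncor1 probe sets, were added after their values were seen. Of the 106 list genes, 102 were tested and the others are not reported here. No per-sample column was left unused.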

Additional observations from a re-analysis of the deposited data

Results flagged for a closer look

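Differences between the effects of the 2 hairpins were found by the direct comparison of shTdp-43-2 with shTdp-43-1. At the level of genes they were Hdac10 (-0.45), Hdac6 (-0.39) and Hdac4 (-0.32), with limma adjusted p of 0.0141, 0.0104 and 0.0325. At the level of usage they were the 6 Ncor1 probe sets 4915975 (-1.72), 4365780 (-1.37), 5046434 (-0.98), 4307352 (-0.84), 5163059 (-0.81) and 5105380 (-0.72), with diffSplice adjusted p from 1.79e-15 to 0.0189. Probe sets 4915975 and 4365780 averaged 5.97 and 5.46 with shTdp-43-2, under the limit of 6.07 for dim probe sets. They passed it through the other groups, and the size and the p-values of their differences are uncertain. The call of 5105380 was present in 13 of 18 other settings. Among the settings that ended it was leaving out shTdp-43-1 replicate 2 or 3 or shTdp-43-2 replicate 3 (adjusted p = 0.149, 0.0938 and 0.193). Over all 18 its diffSplice adjusted p reached 0.607, and its usage difference ran from -0.80 to -0.51. The call of 5163059, present in 14 of 17, ended without shTdp-43-1 replicate 1 or 3 or shTdp-43-2 replicate 3 (0.0661, 0.100 and 0.0847). That of 4307352, present in 16 of 18, ended without shTdp-43-1 replicate 1 or 3 (0.0672 and 0.0868). Groups of 3 arrays were not tested for single deviating arrays.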

How the results depend on the processing

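Over the planned settings and 1 added after seeing the data, no called value of the 9 genes or of their named probe sets changed direction. The number of genes called with shTdp-43-2, 3, was 1 with only the groups compared in the fit and 1 on leaving out replicate 2 of shTdp-43-1 together with replicate 3 of shTdp-43-2, where the number between the hairpins was 1 against 3. These 2 arrays were left out because their deviations from the group means correlated across genes (r = 0.681). Leaving out arrays one at a time gave 0 genes with shTdp-43-1, 1 to 3 with shTdp-43-2 (1 on leaving out replicate 2 of shCont, or replicate 1 or 3 of shTdp-43-2) and 2 to 3 between the hairpins. The median of probe sets called 1 gene with shTdp-43-1 against 0. For probe set usage, one-at-a-time counts ran from 1 to 3, 6 to 9 and 3 to 7, against 3, 9 and 6; the count was 1 with shTdp-43-1 without any 1 control or without replicate 2 or 3 of that hairpin, and 3 between the hairpins without replicate 3 of shTdp-43-1. Usage counts when probe sets above the 25th percentile, or all, were kept were 5 with shTdp-43-1 and 10 between the hairpins, and 5 with shTdp-43-2 when only those above the 75th percentile were kept; more or fewer probe sets were then tested. Without the 2 arrays together 1 was called with shTdp-43-1. With the replicate number as a block the counts of genes were 0, 3 and 3 and those of probe sets 4, 11 and 8, and no call of the 9 genes changed. Deviations of same-numbered arrays correlated at 0.335 to 0.593 for number 1 and 0.128 to 0.320 for number 3, but at -0.383 to 0.0406 for number 2, so the numbers were not taken to pair samples. Signal limits the dim Ncor1 probe sets, 2 of which averaged 5.46 and 5.97 with shTdp-43-2, under the table median.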
